A study of Mus musculus with 33 samples.

Results

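The gRNAs described here are those of the Nanog library that lie past the 3' end of Nanog. They are defined by position: the midpoint of the deposited interval lies between the base after the annotated Nanog end (chr6:122707489-122714633, mm10) and the last position of the library, at 122771575. The rule uses no counts but was set with earlier results of these data known. This gave 1331 of the 3918 gRNAs of the Nanog table, and of 15672 gRNAs in the tables of the 4 reporter lines of the series. The other 2587 gRNAs of the Nanog table target GFP (10), the region within 2 kb of the Nanog 5' end (485), the rest of the gene (512), positions upstream of it (1199) and distant parts of chromosome 6 (381). With a gap of more than 3 kb as the border, the members form 2 clusters. The near cluster holds 290 gRNAs at chr6:122714627-122716986, directly behind the gene and up to 2.35 kb from its 3' end. The far cluster holds 1041 gRNAs at chr6:122760636-122771575, 46.0 to 56.9 kb from the 3' end and 53.2 to 64.1 kb from the 5' end of Nanog. The median step between neighbouring starts is 5 bp in both clusters, so neighbouring gRNAs overlap and are not independent targets.

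Each library was made from genomic DNA of mouse embryonic stem cells of a Nanog reporter line, which carries a C-terminal fusion of GFP to Nanog and, at the ROSA26 locus, a dummy guide RNA. All groups share this line, a medium with LIF, GSK-3 inhibitor XV and UO126, and mutation by CRISPR/Cas9 after electroporation of the gRNAs. The GFP-negative group (2 libraries) was sorted for loss of GFP, and the bulk group (2 libraries) is the whole electroporated population. The labels number the replicates of the line without saying whether they were separate clones or cultures, so a p-value here reflects the spread of these libraries alone, part of which may be technical.

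Nanog encodes a homeobox transcription factor that helps to keep embryonic stem cells pluripotent. Its expression is driven by the promoter and by distal enhancers, stretches of DNA that bind transcription factors and act over a distance, and enhancer clusters have been described on both sides of the gene in these cells. In a screen of this kind, cells in which Cas9 has mutated an element needed for expression lose GFP, and the gRNA that led Cas9 there is then enriched among sorted GFP-negative cells. Behind Nanog lies Slc2a3, which encodes the glucose transporter GLUT3. Its RefSeq span, chr6:122727809-122802363, covers a curated transcript together with predicted ones. All 1041 far-cluster gRNAs lie inside that span and none within 1 kb of either end of it, whereas the near cluster ends 10.8 kb before it. The gene table gives spans only, so exons, introns and UTRs are not told apart here. Nor can it be told whether a far-cluster gRNA lies in the curated transcript or only in a predicted one.

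GFP-negative libraries held 142821 and 196665 gRNA counts and bulk libraries 69662 and 62654. One count therefore equals 7.00 and 5.09 CPM (the count scaled to a common library total) in GFP-negative replicates 1 and 2, against 14.4 and 16.0 CPM in bulk. Values are given as CPM or as a percentage of the library total. Such a share is relative: it rises when other gRNAs are lost. The gRNAs that target GFP itself took 10.2% and 12.1% of GFP-negative counts, against 0.564% and 0.575% of bulk counts.

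The 2 clusters differed from bulk in opposite directions. The near cluster took 13.2% and 11.8% of counts in GFP-negative replicates 1 and 2, against 9.14% and 8.81% in bulk. Both GFP-negative libraries lay above both bulk libraries, and the share was 1.40 times that of bulk (12.5% ± 1.02 against 8.98% ± 0.235, SD, n = 2 each, log2 ratio 0.48). The far cluster took 10.5% and 10.6% in GFP-negative replicates 1 and 2, against 29.6% and 28.0% in bulk. Here both GFP-negative libraries lay below both bulk libraries, at 0.366 times the bulk share (10.5% ± 0.0526 against 28.8% ± 1.11, log2 ratio −1.45). Within a replicate number the log2 ratio was 0.53 and 0.42 for the near cluster and −1.49 and −1.40 for the far cluster. With 2 libraries a group, the smallest p of an exact two-sided permutation test is 0.333, and each cluster had that value (0.333 adjusted over the 2 clusters), so neither difference can pass the test in this design. The near cluster's direction depended on how many of its top gRNAs were left out. With its most counted gRNA taken out of each GFP-negative library, and bulk left whole, its log2 ratio was 0.26. Without the members among the 5 most counted of either GFP-negative library it was −0.40. Both choices lower the ratio by construction, and the second was added after the data were seen. Counting error alone moves these shares by at most 0.379 percentage points (exact Clopper-Pearson 95% interval); reads of PCR copies are not independent molecules, so it is a lower limit of the true error.

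Near-cluster gRNAs made up 55.8% and 52.7% of the members' counts in GFP-negative cells, against 23.6% and 23.9% in bulk. All members together took 23.8% and 22.4% of GFP-negative counts, against 38.7% and 36.8% of bulk counts (23.1% ± 0.968 against 37.7% ± 1.35, log2 ratio −0.71).

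Set beside other positions of the library, the near cluster's ratio was nearest in value to that of the Nanog body and the far cluster's to that of distant gRNAs. The log2 ratio of GFP-negative to bulk shares was 0.45 for the rest of the Nanog body (13.6% ± 5.12 against 9.95% ± 1.28), with GFP-negative values of 9.98% and 17.2% against bulk values of 9.05% and 10.8%, which overlap. It was 0.89 within 2 kb of the Nanog 5' end (17.8% ± 0.706 against 9.56% ± 0.387). Upstream gRNAs had 35.0% and 26.1% in GFP-negative cells against 28.8% and 30.7% in bulk, a log2 ratio of 0.04 with overlapping libraries. Distant gRNAs of chromosome 6 had 2.88% and 4.86% against 13.6% and 11.3% (log2 ratio −1.69). The differences between these ratios and those of the members were not tested.

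Within the near cluster, the ratio varied by position. In bins of 250 bp counted from the Nanog 3' end, 6 of 10 bins had a log2 ratio above 0 and 4 below, but only 3 bins had both GFP-negative libraries above both bulk libraries. These were the bin from 750 to 1000 bp (2.09% and 2.07% against 1.01% and 0.956%, log2 ratio 1.08), the bin from 1250 to 1500 bp (2.25% and 1.84% against 1.11% and 0.978%, 0.97) and the bin from 1750 to 2000 bp (3.60% and 1.66% against 1.22% and 1.12%, 1.17). The most counted gRNA held 30.7% and 41.3% of the first of these bins in GFP-negative replicates 1 and 2. It held 50.1% and 73.1% of the second and 60.1% and 46.8% of the third. In the second and the third a different gRNA led in each replicate. The first 250 bp behind the gene showed the opposite order, with 0.760% and 0.523% in GFP-negative cells against 1.06% and 1.24% in bulk (log2 ratio −0.84). In the other 6 bins the libraries overlapped. The bin from 1500 to 1750 bp had 0.0329% in GFP-negative replicate 1 and 1.28% in replicate 2, against 1.07% and 1.32% in bulk.

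In the far cluster every part was lower. Of 11 bins of 1 kb, 10 had both GFP-negative libraries below both bulk libraries and all 11 had a log2 ratio below 0. The lowest ratio, −2.31, belonged to the bin starting at 122764000, with 151 gRNAs and 0.814% and 0.819% of GFP-negative counts, against 3.94% and 4.17% in bulk. The bins starting at 122760000, 122761000 and 122765000 followed at −2.06, −2.09 and −2.08. Decreases were smaller at 122762000 (−0.92), 122763000 (−0.90) and 122770000 (−0.92). Only the bin starting at 122768000, which holds 6 gRNAs, had overlapping libraries (0.161% and 0.0478% against 0.165% and 0.147%, −0.58). A border of 1 kb instead of 3 kb splits the far cluster at this thin stretch. The piece at chr6:122760636-122768086 then had 7.81% and 8.28% in GFP-negative cells against 24.1% and 23.2% in bulk (log2 ratio −1.56), and the piece at chr6:122770088-122771575 had 2.70% and 2.30% against 5.42% and 4.79% (−1.03).

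Most members were never measured. At least 1 count in any library was found for 530 of 1331 members (39.8%), 114 of 290 in the near and 416 of 1041 in the far cluster, against 1144 of 2587 (44.2%) in the rest of the table. The 801 members without a count can neither rise nor fall and add nothing to the shares above. Every detected member was found in bulk, as was every detected gRNA of the table: 502 members were in both bulk libraries and none in GFP-negative cells alone. GFP-negative replicates 1 and 2 held 286 and 287 members, against 518 and 514 in the bulk replicates, although they were sequenced more deeply. Over the whole table they held 820 and 817 gRNAs, against 1619 and 1612 in bulk. Of the 530 detected members, 178 were found in both GFP-negative libraries, 217 in one of them and 135 (25.5%) in neither. The share found in neither was 17.5% (20 of 114) in the near cluster and 27.6% (115 of 416) in the far cluster, against 34.4% (393 of 1144) of detected gRNAs in the rest of the table.

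Whether a member was detected went with the length of its interval. Start and end differ by 21 bp for 181 members and by 22 bp for 1150. Of the shorter ones 179 (98.9%) had a count, of the longer ones 351 (30.5%). Both clusters showed this, with 97.2% against 31.1% in the near and 99.3% against 30.4% in the far cluster, and so did the rest of the table, with 98.7% against 34.4%. Once detected, both kinds were about equally abundant in bulk, with medians of 534 CPM for the shorter and 549 CPM for the longer members.

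GFP-negative counts were concentrated on few gRNAs, and mostly on different ones in each replicate. In the near cluster 5 and 8 gRNAs held 50% of the counts of GFP-negative replicates 1 and 2, against 21 and 27 in the bulk replicates. In the far cluster it was 8 and 9, against 62 and 83. Of the 20 most counted members of either GFP-negative library 4 were shared, as were 4 of the 20 most counted of either bulk library. Over the 530 detected members Spearman's rho was 0.230 between the GFP-negative libraries and 0.488 between the bulk libraries. It was 0.613 and 0.515 between GFP-negative and bulk libraries of the same replicate number, against 0.368 and 0.296 across numbers. These are descriptions over gRNAs that share libraries, many of them at 0 counts.

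Single members differed widely between the GFP-negative replicates. The near-cluster gRNA with the highest mean in GFP-negative cells, chr6:122716519-122716541 (1.90 kb behind Nanog), had 21649 and 1871 CPM in GFP-negative replicates 1 and 2, against 2598 and 1804 CPM in bulk. In replicate 2 the leading near-cluster gRNA was chr6:122715932-122715953 (1.31 kb), with 630.2 and 13414 CPM against 2598 and 1309 CPM. The first exceeded the bulk library of its own number in both replicates, but its replicate 2 value lay below that of bulk replicate 1. The second exceeded bulk in replicate 2 alone. The gRNA chr6:122715237-122715259 (0.615 kb) had 13632 and 0 CPM, against 904 and 47.9 CPM in bulk, and chr6:122715053-122715075 (0.431 kb), the one with the highest mean in near-cluster bulk, had 413 and 8268 CPM against 3330 and 1820 CPM.

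The far cluster showed the same disagreement. Its most counted gRNA in GFP-negative replicate 1, chr6:122763240-122763262 (48.6 kb), had 15999 and 0 CPM against 2053 and 1405 CPM in bulk. In replicate 2 the leading gRNA was chr6:122763310-122763331, named here after its values were seen, with 0 and 11014 CPM against 230 and 750 CPM. Each led the cluster in 1 GFP-negative library and had no count in the other. Near the end of the cluster chr6:122770170-122770192 (55.6 kb) had 12484 and 71.2 CPM against 2239 and 2362 CPM. The gRNA with the highest bulk mean, chr6:122765438-122765460 (50.8 kb), was low in both GFP-negative libraries, with 371 and 778 CPM against 2885 and 5267 CPM; edgeR did not call it (0.141 times the bulk mean in CPM, fitted log2 fold change −1.21 after TMM scaling, adjusted p = 0.834).

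Few members had both GFP-negative libraries above both bulk libraries. Both GFP-negative values lay above both bulk values for 8 of 1331 members, 6 of 290 in the near and 2 of 1041 in the far cluster, where 0.791% of all gRNAs in the table (31 of 3918) did so; with TMM-scaled CPM it was 19 members, where the table had 71. The share was 2.07% in the near and 0.192% in the far cluster. The other way round, 367 members had both GFP-negative values below both bulk values, 57 in the near cluster (19.7%) and 310 in the far cluster (29.8%), where 27.9% of the table did. The members' share below bulk (27.6%) was thus close to that of the table. These shares also count gRNAs without a count, which cannot lie below bulk. Among gRNAs with a count it was 57 of 114 in the near and 310 of 416 in the far cluster. For all members it was 367 of 530, against 1094 of 1674 in the table.

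The 6 near-cluster gRNAs with both GFP-negative values above both bulk values lay at 0.30, 0.90, 0.97, 1.12, 1.90 and 1.92 kb behind the gene. The first, chr6:122714924-122714945, had 11203 and 6407 CPM in GFP-negative cells against 2354 and 2155 CPM in bulk, 3.91 times the bulk mean. At chr6:122715525-122715547 the values were 6414 and 8548 CPM against 761 and 2282 CPM (4.92 times). chr6:122715593-122715614 had 2227 and 1759 CPM against 1134 and 638 CPM (2.25 times), and chr6:122715742-122715764 had 2703 and 3966 CPM against 502 and 1851 CPM (2.83 times). These gRNAs, like the others of this kind named below, were picked for that order of the libraries. The choice also favours high ratios to bulk. None of these 4 was called by edgeR, with an adjusted p of 0.574, 0.543, 0.623 and 0.601.

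The remaining 2 share a short stretch with the most counted gRNA of the cluster. chr6:122716520-122716542 had 4411 and 7754 CPM in GFP-negative cells against 2254 and 2873 CPM in bulk (2.37 times), and chr6:122716541-122716563 had 8458 and 6778 CPM against 2024 and 1724 CPM (4.06 times; edgeR adjusted p = 0.623 and 0.568). Together with chr6:122716519-122716541 and 3 other detected gRNAs they lie within 66 bp at chr6:122716498-122716563, a stretch picked after the values were seen. These 6 gRNAs took 3.48% and 1.64% of GFP-negative counts, against 0.910% and 0.905% of bulk counts, and 26.3% and 13.9% of the near cluster's GFP-negative counts. Without them the near cluster still had 9.77% and 10.2% in GFP-negative cells against 8.23% and 7.91% in bulk (log2 ratio 0.30). Not all gRNAs of the stretch were high: chr6:122716540-122716562, shifted by 1 bp from chr6:122716541-122716563, had 126 and 5.09 CPM against 1306 and 942 CPM, and chr6:122716532-122716554 had no count in GFP-negative cells against 804 and 1197 CPM.

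Among 65 pairs of detected members whose starts lie at most 2 bp apart, 13 differed by more than 10-fold in mean GFP-negative CPM and 0 in mean bulk CPM, with means below 3 counts set to that floor. In the near cluster it was 7 of 18 pairs and in the far cluster 6 of 47. The median pair differed 1.78-fold in GFP-negative cells and 1.88-fold in bulk over all members, 8.20-fold and 1.76-fold in the near cluster, and 1.29-fold and 1.90-fold in the far cluster, where pairs with both means at the floor count as equal. Beside the gRNA at 0.30 kb, for example, chr6:122714925-122714946 had 0 and 3412 CPM in GFP-negative cells against 244 and 527 CPM in bulk. The strand of each gRNA is not in the table, so gRNAs with nearly the same interval need not share a sequence or a cut site.

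In the far cluster 2 gRNAs had both GFP-negative values above both bulk values, both in bins whose summed share was lower than in bulk. chr6:122762144-122762166 (47.5 kb) had 4558 and 1566 CPM in GFP-negative cells against 818 and 942 CPM in bulk (3.48 times, edgeR adjusted p = 0.577). chr6:122770315-122770337 (55.7 kb) had 2969 and 2527 CPM against 402 and 1197 CPM (3.44 times, adjusted p = 0.568). A gRNA 18 bp further on, chr6:122770333-122770355, singled out after its values were seen, was low in GFP-negative cells, with 7.00 and 122 CPM against 962 and 1006 CPM.

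Tested one by one over the whole Nanog table with edgeR, no gRNA was called higher, and few members were called lower. Of 431 members that passed the count filter (100 near, 331 far), edgeR's quasi-likelihood test called 0 higher and 19 lower in GFP-negative cells at a Benjamini-Hochberg adjusted p under 0.05, and 0 and 91 at an unadjusted p under 0.05. Over all 1232 tested gRNAs it called 0 higher (0%) and 63 lower (5.11%), and 0 and 253 at an unadjusted p under 0.05. None of the gRNAs that target GFP was called higher either, although their GFP-negative share was 19.6 times that of bulk. The lack of calls higher is therefore no trait of the members. The adjusted calls lower were 4.41% of the tested members, 2.00% in the near and 5.14% in the far cluster, close to the table. DESeq2 called 7 members higher and 91 lower, where the table had 3.57% and 20.4%. With limma-voom 0 were called in either direction, in the members and in the table (0%). At an unadjusted p under 0.05 limma-voom had 3 members higher and 21 lower, where the table had 7 and 59. With the replicate number as a block edgeR called 0 members and 0 gRNAs of the table. Without GFP-negative replicate 1 it called 135 members lower (28.2% of those tested, against 25.7% in the table), without GFP-negative replicate 2 it called 89 (18.7% against 16.2%), and without bulk replicate 1 or bulk replicate 2 it called 0, as in the table.

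The 19 members called lower, 17 in the far and 2 in the near cluster, had no count in either GFP-negative library. All 63 gRNAs called lower over the table had none there either. Bulk values of the 19 members were modest, from 95.8 to 415 CPM, and exceeded the GFP-negative values in both replicates. With 3 counts per library as a floor, the decrease was at least 6.20-fold to 14.6-fold, and the adjusted p ran from 0.0223 to 0.0496. Among the 5 with the largest fitted change, chr6:122762792-122762814 had 115 and 415 CPM in bulk (at least 14.6-fold lower, edgeR adjusted p = 0.0496). chr6:122764325-122764346 had 244 and 239 CPM (at least 13.3-fold, 0.0402), chr6:122764704-122764726 had 273 and 207.5 CPM (at least 13.2-fold, 0.0415) and chr6:122770587-122770609 had 201 and 271 CPM (at least 13.0-fold, 0.0345). In the near cluster chr6:122715239-122715260, at 0.617 kb, had 244 and 255 CPM (at least 13.8-fold, 0.0404). It starts 2 bp from chr6:122715237-122715259, which reached 13632 CPM in GFP-negative replicate 1. All 5 stayed called with TMMwsp, with library totals and with DESeq2, and lost the call without a filter on low counts, with limma-voom, with the replicate block and in every fit without 1 library in which they were tested. The block left their fitted changes nearly as they were: for chr6:122715239-122715260 the log2 fold change was −6.96 with it and −6.97 without (edgeR adjusted p = 0.675 and 0.0404), values that depend on the prior count.

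Of the 7 members that DESeq2 called higher, 5 lie in the near cluster (100 tested) and 2 in the far cluster (331 tested). Over the table it called 44 of 1232 higher (3.57%). Both GFP-negative values lay above both bulk values for 4 of the 7. These 4 were chr6:122714924-122714945 (DESeq2 adjusted p = 0.0215), chr6:122715525-122715547 (0.0182), chr6:122716541-122716563 (0.0226) and, in the far cluster, chr6:122770315-122770337 (0.0499). The other 3 had nearly all of their GFP-negative counts in 1 library: chr6:122716519-122716541 (0.0182), chr6:122715916-122715938 with 11266 and 198 CPM in GFP-negative cells against 359 and 1213 CPM in bulk (0.0414), and chr6:122762321-122762342 with 42.0 and 2619 CPM against 316 and 63.8 CPM (0.0453). The second and the third of these were named after their values were seen.

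The fitted log2 fold changes shift with the scaling of the libraries, so the clusters are given here against the median of the table. With TMM the median of the 1232 tested gRNAs was −1.29, that of the 100 near-cluster gRNAs −0.10 and that of the 331 far-cluster gRNAs −1.89. The sign of the near-cluster median changed with the scaling: TMMwsp put it at 0.28, unscaled library totals at −1.65 and DESeq2 at 0.67. Relative to the table the near cluster was higher by 1.18, 1.24, 1.22 and 1.25, and the far cluster lower, at −0.60, −0.60, −0.66 and −0.73, under these 4 scalings in the order TMM, TMMwsp, library totals, DESeq2. Without GFP-negative replicate 1 the near cluster was 2.60 above the table and without GFP-negative replicate 2 it was 0.75 above; the replicate block and limma-voom gave 0.76 and 0.73. Without GFP-negative replicate 2 the far cluster's median was 0.08 above that of the table. Without a filter on low counts the near cluster was 1.87 above the table and the far cluster 0.15 below it. Apart from that fit, the medians cover only members that passed the filter. None of them carries a test.

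At the border used to choose the members, nothing was measured directly on either side. The last gRNA outside, chr6:122714614-122714636, and the first inside, chr6:122714627-122714649, had no count in any library. The next inside, chr6:122714635-122714657 and chr6:122714636-122714658, had 0 and 30.5 CPM and 91.0 and 676 CPM in GFP-negative cells, against 1694 and 862 CPM and 1694 and 3080 CPM in bulk. Both were lower in both GFP-negative libraries. No gRNA lies beyond the upper end.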

How the data were processed

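The authors deposited a table of raw gRNA counts per library for each reporter line, without normalization, and used the mm10 build, per the submitters' processing notes. Neither the counting program (not given in the sources used here) nor whether positions are counted from 0 or 1 is stated. Libraries were made by PCR from genomic DNA, per the labels' protocols. Each library's population and number were taken from its title. The Nanog table was used, without the placeholder guide (0.0357% and 0.0386% of GFP-negative and 0.633% and 0.663% of bulk counts). Genes came from RefSeq spans of GRCm38.p6.

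The whole table was fitted with edgeR 4.0.16 in R 4.3.3 (filterByExpr with a minimum count of 10, TMM, robust quasi-likelihood F test, Benjamini-Hochberg over all tested gRNAs). DESeq2 1.42.0 and limma 3.58.1 were alternatives. The code was tested on simulated data, which checks the code and not how well its model suits these libraries. Shares were compared by exact two-sided permutation over the 4 libraries, without regard to the replicate number. The main edgeR fit did not use the replicate number either. The labels name both populations of a number as coming from the same electroporated replicate of the line, so the numbers pair the libraries; over members with a count, the difference between replicates correlated between populations (r = 0.315, n = 530).

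Named gRNAs were the 5 called lower with the largest change and those with both GFP-negative values above both bulk values. The others were those with the highest mean per cluster and population, and the 5 with the largest gap between GFP-negative libraries. Members near an end of the Slc2a3 span would also have been named, but there were none. The members, bins and rules were chosen with earlier results of these data known. Bins and close pairs were added after the data were seen.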

Additional observations from a re-analysis of the deposited data

How the results depend on the processing

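The number of members called lower (19 with edgeR) was 31 with TMMwsp, 69 with library totals, 20 at a minimum count of 20, 91 with DESeq2 (the table had 63 with edgeR, and 99, 217, 68 and 251 in these fits), and 0 without a filter on low counts, with limma-voom and with the replicate number as a block; leaving out 1 library gave 0 to 135 (0 to 369 in the table). None was called higher in these fits except 7 with DESeq2, and 0 to 35 when 1 library was left out (35 and 18 without GFP-negative replicate 1 and 2, with 133 and 97 in the table, where the lone library is assumed to vary like the bulk group). Of 216 values over 20 named gRNAs, 156 kept their direction and side of the threshold, 32 lost the call, 22 gained one and 6 changed sign. Only the named gRNAs called in the main fit can lose a call. For the others, which are most of them, staying uncalled counts as kept, so the pooled numbers do not measure how stable the calls are. The fitted log2 fold change of chr6:122715053-122715075 ran from −0.996 to 3.50 with 1 library left out, that of chr6:122715237-122715259 from −8.00 to 8.87, that of chr6:122770170-122770192 from −3.15 to 4.12 and that of chr6:122763240-122763262 from −9.78 to 4.86; the last was −2.12 with limma-voom and −1.43 with the replicate block. The near cluster's log2 share ratio was 0.26 with its most counted gRNA taken out of each GFP-negative library and bulk left whole. It was −0.40 without the members among the 5 most counted of either GFP-negative library. The replicate block left the share ratios at 0.48 (near) and −1.45 (far). With TMM-scaled CPM, 19 members in place of 8 had both GFP-negative values above both bulk values, and 71 gRNAs in place of 31 over the table. One count equals 5.09 to 16.0 CPM, so lower values were not detectable at this depth.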

Other observations

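The dependence of detection on interval length was not particular to the gRNAs behind Nanog. Among gRNAs whose start and end differ by 21 bp, 98.8% of the Nanog library had a count in some sample, 99.0% of the Rpp25 library and 99.6% of the Zfp42 library. Among those that differ by 22 bp it was 33.1%, 33.1% and 31.2% in the same lines. In the Tdgf1 line 94.1% of the shorter and 96.8% of the longer intervals had a count. What lies behind this was not tested.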
